A study of Homo sapiens with 2 samples.

Results

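Broad LSD1 peaks below the score ceiling are the regions of at least 6000 bp in a ChIP-seq peak list whose score lies under 3100, a value that 206 peaks of the list share. The peaks were selected on these 2 values, width and score, and on nothing else. They were 472 of 20110 peaks (2.35%), and they covered 4155146 bp, or 9.91% of all bases under peaks. The series holds 1 library of chromatin precipitated with an antibody against LSD1 (Abcam ab17721) and 1 input library. Both came from PC-3M-luc cells, a luciferase-marked line of the metastatic PC-3M variant of the PC-3 prostate carcinoma line. Both libraries have the genotype label Control, passages 17-20 and the same medium, EMEM with 10% FBS and glutamine, so nothing but the antibody separates them in the labels. With 1 library per arm no value has a replicate check, no p-value was computed, and intervals are exact and cover counting error only. The read depth behind the peaks is unknown. A peak list holds no expression, so the cell type was not checked from markers, and the list gives no genes of its own.

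LSD1 (KDM1A) is a flavin-dependent enzyme that strips mono- and dimethylation from lysine 4 of histone H3, a mark of promoters and enhancers. It works in complexes with CoREST and histone deacetylases and in NuRD, and it is also found at the promoters of active genes. In prostate cancer cells it has been studied as a partner of the androgen receptor and as a regulator of genes of invasion. A broad peak is a stretch of chromatin over which a caller joined enriched windows without a break. It can run, for example, from a promoter into a gene body or across an enhancer cluster, but the series holds no enhancer mark.

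The sequences under these regions were of more than one kind, and 2 kinds are printed here to set CpG-rich promoters beside distal sequence with AP-1 elements. The promoters are those of ribosomal protein genes, the gene list with the largest share under broad peaks. Each sequence is the 150 bp before the most upstream annotated start of the gene, in hg19 and on the strand of the gene, which is the plus strand for all 3. RPL28 and RPS15 hold the GC box of SP and KLF factors (GGGCGG), and RPS9 holds a CCAAT box, each in capitals in either orientation. ETS elements (CCGGAAG) were searched as well and none lay in these 3. The windows are chr19:55897150-55897299, chr19:1438207-1438356 and chr19:54704527-54704676, and none touches an annotated exon.
RPL28: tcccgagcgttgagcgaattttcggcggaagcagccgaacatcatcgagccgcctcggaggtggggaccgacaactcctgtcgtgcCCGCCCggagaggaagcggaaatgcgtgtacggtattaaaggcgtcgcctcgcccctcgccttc
RPS15: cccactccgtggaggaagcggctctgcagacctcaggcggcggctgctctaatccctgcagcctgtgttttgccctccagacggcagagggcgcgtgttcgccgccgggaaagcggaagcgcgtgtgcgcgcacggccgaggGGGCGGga
RPS9: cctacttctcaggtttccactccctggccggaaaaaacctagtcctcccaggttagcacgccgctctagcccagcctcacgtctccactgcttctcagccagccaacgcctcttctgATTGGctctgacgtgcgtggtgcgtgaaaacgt
Among the 150 bp windows before the 383 canonical start sites under these peaks, 70.2% held the GC box, 14.4% the ETS element and 25.8% the CCAAT box. Before all 19812 canonical start sites with such a window, under a peak or not, the shares were 52.6%, 9.77% and 26.4%. These shares were counted from canonical starts, which can differ from the most upstream starts used for the printed windows. Starts under other LSD1 peaks were not counted apart.

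The distal examples are 2 windows of 150 bp that touch no exon, from peaks without a coding start site, with 3 matches to the AP-1 element TGANTCA, which is in capitals and reads the same on both strands. One lies in a 14203 bp intergenic peak over the non-coding gene LINC02582 (chr18:71006155-71006304, plus strand), 469287 bp from the nearest coding start site, that of NETO1. The other lies in a 7653 bp peak within an intron of KCNMA1, a potassium channel gene (chr10:79264789-79264938, plus strand).
NETO1 region: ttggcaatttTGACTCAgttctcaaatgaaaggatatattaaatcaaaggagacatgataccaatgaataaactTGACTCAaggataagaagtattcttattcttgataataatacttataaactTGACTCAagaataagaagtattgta
KCNMA1 intron: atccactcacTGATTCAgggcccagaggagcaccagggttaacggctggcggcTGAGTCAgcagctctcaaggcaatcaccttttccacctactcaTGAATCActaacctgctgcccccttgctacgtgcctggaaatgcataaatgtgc
Windows like these were rare: of 27482 tiles of 150 bp cut from these peaks, 960 (3.49%) held at least 1 TGANTCA and 3 held at least 3. The share with at least 1 was 3.63% in 7825 tiles of broad peaks at or above the ceiling.

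PLAU, the gene of the urokinase protease that activates plasminogen, carries AP-1 elements under a single broad peak of 18973 bp (chr10:75661484-75680456, score 1437). The peak held 8 elements, and the windows of 57 bp around the 6 that touch no exon are given on the plus strand, which is the strand of the gene. Positions are in bp from the canonical start site, negative before it, and TGANTCA is in capitals.
PLAU -7682: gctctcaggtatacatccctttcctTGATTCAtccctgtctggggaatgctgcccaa
PLAU -5333: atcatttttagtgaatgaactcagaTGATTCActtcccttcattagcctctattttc
PLAU -3863: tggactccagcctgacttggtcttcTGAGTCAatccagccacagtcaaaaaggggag
PLAU -3114: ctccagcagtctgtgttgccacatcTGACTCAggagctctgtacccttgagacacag
PLAU -1698: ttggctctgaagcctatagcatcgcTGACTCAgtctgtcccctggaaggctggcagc
PLAU 7773: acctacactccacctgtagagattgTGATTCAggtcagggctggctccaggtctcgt
The other 2 elements, at -1890 and 5656 bp, lie in windows that touch an exon. The elements at -7682, -5333, -1890 and 7773 bp have T or A at N, and the rest have the narrower form with C or G. A match to these letters is a description of the sequence and not evidence of a bound factor.

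The broad peaks spanned a wide range of width and score. Their median width was 7549 bp, with quartiles of 6582 and 9487 bp and a range of 6005 to 36286 bp. Of the 472, 101 were at least 10 kb wide, 29 at least 15 kb and 8 at least 20 kb. The score is the authors' value for each peak and serves here only to describe and rank. It had a median of 1089 and ran from 50.01 to 3066, with 254 peaks at 1000 or more and 29 under 200. Since these values chose the peaks, they are a description only. At the width threshold the narrowest members were peaks of 6005 bp at CSTB, 6005 bp at SPEF1 and CENPB, and 6011 bp within LMNA, while the widest peaks left out below the ceiling included 5991 bp at SLC35B2 and 5990 bp within DLG5. At the score threshold the highest members were DUSP5 (3066), NOTCH1 (3048) and GSE1 (3041), while broad peaks of 3100 and as little as 6059 bp at RPL10, 6092 bp at SEC16A and 6109 bp at HSP90AA1 were left out.

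**Figure D1:**
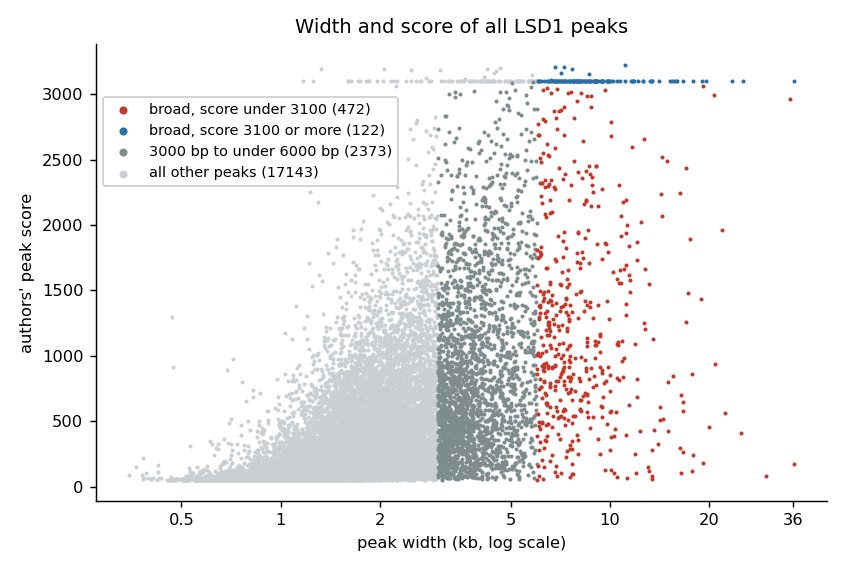
Each point is 1 of the 20110 LSD1 peaks, by its width in kb on a log axis and the authors' score, coloured by group. The 472 broad peaks below the ceiling fill the range from 50.01 to 3066, and the 122 broad peaks at or above it lie along 3100.

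Broad peaks below the ceiling had their midpoint within 1 kb of a start site less often, and in exons and introns more often, than all peaks, but within 5 kb of a start site more often. The midpoint lay within 1 kb of an annotated start site (TSS) of a protein-coding gene in 180 of 472 (38.1%, interval 33.7 to 42.7). The share was 52.5% (43.2 to 61.6) in the 122 broad peaks at or above the ceiling, 60.1% (58.1 to 62.1) in the 2373 peaks of 3000 bp to under 6000 bp, and 55.1% in all peaks. Exons held the midpoint of 90 (19.1%), against 14.8%, 10.1% and 7.48% in those 3 sets. Introns held 129 (27.3%), against 15.6%, 13.7% and 17.2%, and intergenic sequence held 73 (15.5%), against 17.2%, 16.1% and 20.2%. The promoter and intron intervals did not overlap those of the mid-width peaks. In a wide peak the midpoint moves away from a start site that the peak still covers, and the share depended on the definition: it was 10.4% with canonical start sites alone and 80.9% when any base of the peak counted. Within 5 kb of a start site lay 81.4% of the midpoints (77.5 to 84.8), against 91.8% in broad peaks at the ceiling, 83.1% in mid-width peaks and 73.4% in all peaks, so the order against all peaks turned round.

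A start site was nonetheless under most of these regions. A canonical TSS, the start of the transcript that GENCODE marks as representative, was inside 291 of 472 (61.7%, interval 57.1 to 66.1), against 86.1% of broad peaks at the ceiling, 57.2% of mid-width peaks and 46.8% of all peaks. A wider peak holds more start sites by its length alone, and per 100 kb covered the order was otherwise, with 9.22 canonical TSSs under these peaks, 12.8 at the ceiling, 16.9 in mid-width peaks and 25.6 over all peaks. Exactly 1 canonical TSS lay under 219 of the peaks, 2 under 58 and 3 or more under 14. The most crowded was a 35292 bp peak on chromosome 8 (chr8:145720954-145756245, score 2966) with 6 canonical TSSs, among them those of GPT, an alanine aminotransferase, and RECQL4, a DNA helicase. METRN, ANTKMT, CCDC78 and HAGHL shared a 20737 bp peak (chr16:763589-784325, score 2994), and MED22, RPL7A, SURF1 and SURF2 of the surfeit cluster shared one of 12682 bp. A pair of canonical TSSs on opposite strands, within 1 kb and pointing apart, lay under 32 of the peaks (6.78%), against 7.38% at the ceiling and 5.60% in mid-width peaks, a range within the intervals.

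**Figure D2:**
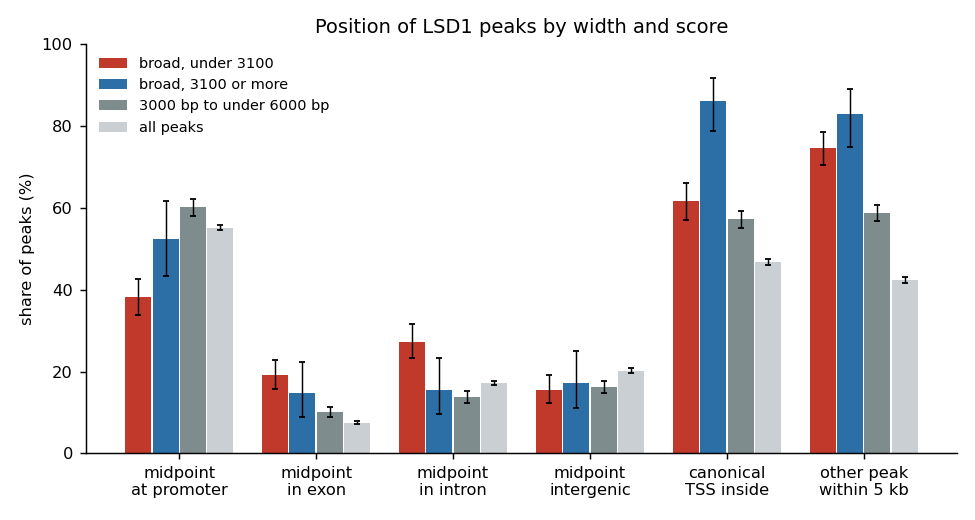
Bars give the share of peaks in percent for each position class, for a canonical TSS inside and for a neighbouring peak within 5 kb, with exact 95% intervals. Broad peaks below the ceiling (the left bar of each group) have the lowest promoter share, 38.1%, and the highest intron share, 27.3%.

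The regions reached mainly into the transcribed side of the gene. Among the 219 peaks with 1 canonical TSS, a median of 79.1% of the width (interval 74.5 to 81.3) lay downstream of it, against 68.5% (60.6 to 73.9) in broad peaks at the ceiling and 61.4% (59.8 to 62.9) in mid-width peaks. The median reach downstream was 5778 bp, close to the 5641 bp of broad peaks at the ceiling, while the reach upstream was 1740 bp (1546 to 2275), against 2858 bp (2250 to 3546). More of the peak lay downstream than upstream in 171 of 219 (78.1%), against 77.9% at the ceiling and 69.3% in mid-width peaks. The downstream share was higher at wider thresholds, 72.9% at 5000 bp and 82.0% at 8000 bp, and since width chose the peaks its part in this share was not tested.

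SLCO4A1, a gene of an organic anion transporter, had the widest of these peaks, 36286 bp (chr20:61271550-61307835), of which 33981 bp lay downstream and 2305 bp upstream. Its score was only 172. ENO1, the glycolytic enolase, was covered by 25073 bp (chr1:8916125-8941197, score 410), and RND3, a small GTPase that lowers actomyosin contraction, by 22403 bp with 328 bp upstream (chr2:151322107-151344509, score 561.5). These 3 peaks covered the canonical transcript from start to end. EPHA2, an ephrin receptor kinase, had 19974 bp (chr1:16463962-16483935, score 456), of which 18603 bp reached into its 31733 bp transcript. STC2, which encodes a secreted glycoprotein, had 21890 bp (chr5:172737617-172759506, score 1963), and RHOF and SETD1B, a small GTPase and a histone H3 lysine 4 methyltransferase, shared 20874 bp (chr12:122223908-122244781, score 939). DUSP5, a nuclear phosphatase of ERK, combined a width of 19224 bp with the highest score of the set (chr10:112255112-112274335).

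Some peaks ran the other way. EHMT1, a histone H3 lysine 9 methyltransferase, had 8192 bp upstream and 216 bp downstream of its canonical TSS (chr9:140505265-140513672). The peak of NOTCH1, a receptor of cell-to-cell signalling, lay 5891 bp upstream and 551 bp downstream (chr9:139439950-139446391). At CAPN15, a calpain-family protease gene, the figures were 7083 and 357 bp. These 3 were picked after their values were seen.

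Peak ends tended to fall beyond short genes and inside long ones. Of the 219 peaks, 90 (41.1%, interval 34.5 to 47.9) ran past the end of the canonical transcript, against 55.9% of broad peaks at the ceiling and 7.36% of mid-width peaks. The transcripts so passed had a median length of 4143 bp (3412 to 4772), and those in which the peak stopped had 17517 bp (13887 to 23597). Over all 383 genes with the canonical TSS under these peaks, the transcript median was 7542 bp (6321 to 8916), against 4287 bp under broad peaks at the ceiling, 27945 bp for genes with the TSS under any peak and 22979 bp for all coding genes. At least 1 whole coding transcript lay within 143 of the 472 (30.3%), against 59.0% and 4.89%. A short transcript is more easily passed by a wide peak, and the part of gene length in these shares was not tested.

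**Figure D3:**
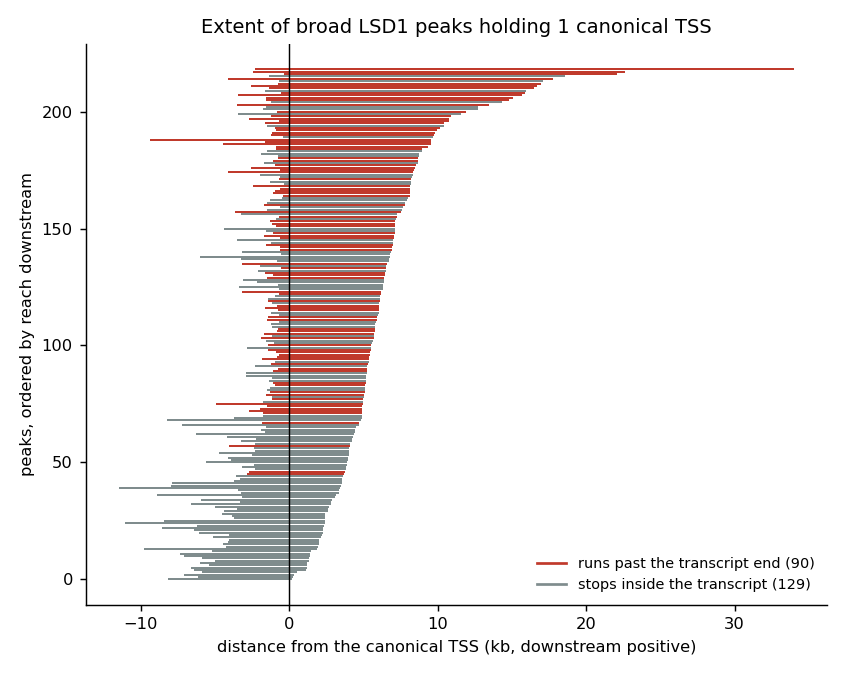
Each line is 1 of the 219 broad peaks that hold exactly 1 canonical TSS, drawn from its upstream to its downstream end in kb from the TSS and ordered by reach downstream. Red lines, 90 of them, pass the end of the canonical transcript, and most lines extend farther to the right of the TSS than to the left.

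Not all broad regions sat at a canonical start. A further 81 (17.2%) held only an alternative coding TSS, 39 (8.26%) the end of a coding gene without a start, 28 (5.93%) only part of a gene body, and 33 (6.99%) touched no coding gene. NDRG1, a stress-responsive gene that androgen induces in prostate cells, showed both kinds. A 29855 bp peak of low score (82.2, chr8:134246161-134276015) covered alternative starts in the 3′ part of the gene, 48407 bp from the canonical TSS, and a second of 17552 bp and a score of 1893 lay over that TSS (chr8:134293548-134311099). The 100 peaks with no coding TSS of any kind had a median width of 7145 bp and a median score of 903, against 7818 bp and 1165 for the 372 with one. Their midpoints were intergenic in 50, intronic in 33 and exonic in 17, at a median of 24228 bp from the nearest canonical TSS, and 28 held the canonical TSS of a lncRNA gene.

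The widest of these start-free regions lay over the 3′ end of ZNF469 (17301 bp, chr16:88494596-88511896, score 1478), within PYGB, the brain-type glycogen phosphorylase gene (14206 bp, score 611), near NETO1 (14203 bp, score 509), over CLBA1 and CDCA4 (13611 bp), and 43794 bp from FAM135B on chromosome 8 (13140 bp, score 120). SRSF1, a splicing factor gene, RPL32 with CAND2, and DLGAP1 followed with 11206, 11191 and 11163 bp. Of the 5 peaks of lowest score, those at LRRC8A (50.01), ABLIM3 (57.5), LAMA5 (64.8) and AKT1 (70.2) held no canonical start, as did 181 of all 472. At LAMA5 a neighbouring broad peak with a score of 1661 covered the canonical start (chr20:60935585-60948350). The 13410 bp peak over THTPA and AP1G2 (54.8) held both of theirs. After DUSP5, NOTCH1 and GSE1, the highest scores were at DCBLD2 (3030), ANXA11 (3030), TSSC4 (3018), CFAP276 (3012, with no coding TSS inside), CAPN15 (3011) and SHARPIN, MAF1 and WDR97 (3008).

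Of the 17 gene lists, that of ribosomal protein genes had the largest share under broad peaks. It holds 30 of these genes and not the whole family, some of whose other genes also lay under broad peaks, so its share is that of the list alone. Of all 19869 coding genes, 383 (1.93%) had the canonical TSS under a broad peak below the ceiling, 153 (0.77%) under a broad peak at or above it and 10778 (54.2%) under any peak. Any annotated TSS lay under a broad peak below the ceiling in 2.57% of coding genes, and any base of the gene in 3.54%. Of the 30 ribosomal genes listed 11 did (36.7%, interval 19.9 to 56.1). Among them were RPL3, RPL7A, RPL13A, RPL18, RPL27A, RPL28, RPL35, RPS9 and RPS15. A further 8 of the 30, among them RPL8 and RPS2, lay under broad peaks at or above the ceiling, so 19 were under a broad peak of any score. All 30 were under some peak, and 29 have a canonical transcript under 10 kb. Among the 10778 coding genes under any peak, 3.55% had the TSS under a broad peak below the ceiling, and among the 2481 of them with a transcript under 10 kb, 229 (9.23%) did. At RPS15, a small subunit protein gene with a 2100 bp transcript, the peak ran 8923 bp (chr19:1437694-1446616, score 842), with 701 bp upstream and 6122 bp beyond the transcript end. RPL7A had 12682 bp, RPL28 12115 bp, RPS9 10979 bp and RPL3 10961 bp, and each of these covered the whole transcript. Ribosomal genes have many processed copies elsewhere in the genome, and how the aligner placed reads that fit several copies is not given in the sources used here.

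The lists of focal adhesion, protease and prostate luminal genes each gave a few members, and that of epithelial-mesenchymal transition and invasion gave none. Of 30 focal adhesion and actin genes, 5 (16.7%) had the TSS under a broad peak below the ceiling. ZYX, which encodes the adhesion protein zyxin, had 16996 bp over the whole gene (chr7:143074919-143091914, score 1258). ITGA3, the alpha 3 integrin subunit, had 14267 bp over the first 37.05% of its transcript (chr17:48131941-48146207, score 2240). ITGB4, the beta 4 subunit, had 6695 bp, SRC, the tyrosine kinase, 6548 bp and CFL1, which encodes the actin-severing cofilin, 6504 bp. ACTB, ACTG1 and PFN1 lay under broad peaks at the ceiling instead. PXN, the gene of the adhesion scaffold paxillin, had no peak of 6000 bp among its 11, although 9 of them lay within 1 kb of each other over 30347 bp (chr12:120646873-120677219). Of 22 protease genes, PLAU and CTSD, the lysosomal cathepsin D gene with 10101 bp, qualified (9.09%), and of 22 transition and invasion genes none did, which allows a share of up to 15.4%.

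In the prostate luminal list, 3 of 17 annotated genes qualified: FOXA1, a pioneer factor gene, with 14382 bp (chr14:38056487-38070868, score 2071), HOXB13, a prostate homeobox gene, with 12779 bp (chr17:46795168-46807946, score 1204), and NDRG1. The peaks of FOXA1 and HOXB13 covered the whole gene. KRT18, the luminal keratin gene, was the only qualifier among the 16 keratin genes listed (6082 bp), a list that leaves out other keratins, and VGF, a neuropeptide precursor gene, the only one among 18 neuroendocrine genes (6510 bp).

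The immediate early, chaperone and S100 and annexin lists gave 3 genes each. DUSP5, FOSL2, which encodes an AP-1 subunit (6589 bp), and DUSP6, another ERK phosphatase gene (6522 bp), were 3 of 22 (13.6%), while JUNB and IER2 were at the ceiling. HSP90B1, the chaperone of the endoplasmic reticulum, with 14506 bp, DNAJB1 with 7602 bp and HSP90AB1 with 6388 bp were 3 of 24 chaperone genes (12.5%). ANXA11 with 9668 bp, ANXA2 with 9221 bp and S100A16 with 8789 bp were 3 of 22 S100 and annexin genes. EEF2, the translocation factor of translation, with 12079 bp, and EIF4A2 with 7004 bp were 2 of 24 translation factors, and ENO1 was 1 of 20 glycolysis genes. Of 28 genes of LSD1 complexes, GSE1, a CoREST-associated protein gene (6899 bp, score 3041), and MTA1, a NuRD subunit gene (6061 bp, score 154), qualified. KDM1A itself had a peak of 2090 bp with a score of 878. SNHG1 and SNHG15, hosts of small nucleolar RNAs, were 2 of 26 long non-coding genes, against 0.958% of all lncRNA genes, and MALAT1 and NEAT1 lay under broad peaks at the ceiling. None of 13 EGFR genes, 26 KLF and ETS factor genes or 22 olfactory receptor genes qualified, which allows shares of up to 24.7%, 13.2% and 15.4%. Where a list gave 3 genes or fewer the interval is wide. It reaches below the 1.93% of all coding genes in every list that gave 2 or fewer. In the lists that gave 3, its lower bound was 2.91% (immediate early, and S100 and annexin), 2.66% (chaperones) and 3.80% (luminal). Many of these genes lay under some peak: 19 of 22 immediate early, 17 of 22 S100 and annexin, 23 of 24 chaperone and 8 of 17 luminal genes. Among coding genes under any peak the share was 3.55%, above the bounds of 2.91% and 2.66%. Among those with a transcript under 10 kb it was 9.23%, above all of these bounds.

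**Figure D4:**
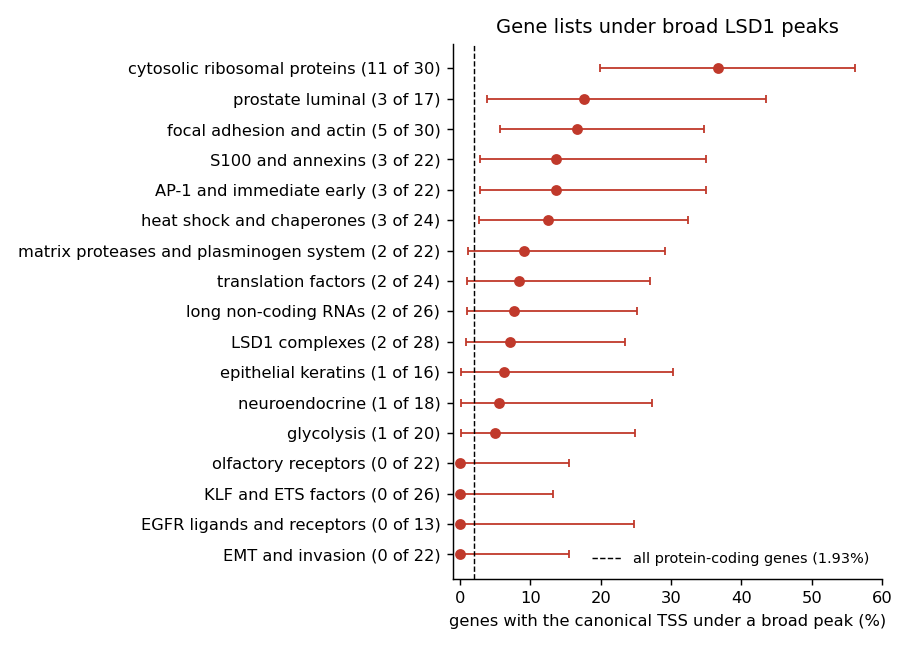
Points give the percent of each list's annotated genes with the canonical TSS under a broad peak below the ceiling, with exact 95% intervals, and the dashed line is the 1.93% of all protein-coding genes. The ribosomal list stands at 36.7% (11 of 30) and 4 lists stand at 0.

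The sequence under the peaks was richer in GC than its surroundings, with the highest values near the start sites. Median GC content was 56.4%, against 52.3% in flanks of the same length starting 2 kb outside the peak. Peak by peak the median gain over the flanks was 3.33 points of GC (2.83 to 3.92), with 369 of 472 (78.2%) above their own flanks, against 82.0% at the ceiling, 82.5% in mid-width peaks and 80.4% over all peaks. The gain was 5.45 points in mid-width peaks and 6.88 points over all peaks. The CpG observed-to-expected ratio was 0.384 under the peaks and 0.318 in the flanks, against ratios under the peaks of 0.462 at the ceiling, 0.480 in mid-width peaks and 0.509 over all peaks. In the 219 peaks with 1 canonical TSS the ratio was 0.738 in the kb after the TSS and 0.401 in the next, and it lay between 0.276 and 0.341 from 2 to 10 kb. The 100 start-free peaks had a GC content of 51.5%, only 0.53 points above their flanks (interval -0.45 to 1.59).

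The density of AP-1 elements under these peaks lay within the interval of their flanks. TGANTCA occurred 1036 times, or 2.49 per 10 kb (2.34 to 2.65), against 2.52 (2.37 to 2.68) in the flanks, 2.53 in broad peaks at the ceiling, 2.76 in mid-width peaks and 2.93 over all peaks. The start-free peaks had 3.28 per 10 kb (2.89 to 3.71), against 2.80 (2.44 to 3.20) in their own flanks, and these intervals overlapped. In the peaks with a coding TSS it was 2.32 (2.16 to 2.48), an interval that did not overlap that of the start-free peaks. Within 1 kb of a coding TSS the density was 1.95, and farther away it was 2.86. Other wide peaks had the same order, with 2.14 and 3.36 in mid-width peaks and 2.20 and 2.81 in broad peaks at the ceiling. ENO1 held the most elements, 12 in 25073 bp, followed by several peaks tied at 9, among them those at RND3, at RHOF and SETD1B, at VAMP4, near NETO1 and a 10650 bp intergenic peak over LINC-PINT (chr7:130593567-130604216, score 2308).

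GC boxes and ETS elements were denser under the peaks than beside them, but less dense than over all peaks. GGGCGG stood at 13.7 per 10 kb under the peaks and 7.87 in the flanks, and CCGGAAG at 1.29 and 0.814. Broad peaks at the ceiling had 16.3 of GGGCGG, mid-width peaks 17.2 and all peaks 18.8, and for CCGGAAG the values were 1.565, 1.43 and 1.72. The start-free peaks had 6.85 of GGGCGG against 6.77 in their flanks. CACGTG, the E-box of MYC and USF factors, stood at 2.37 under the 472 peaks and 1.94 in their flanks, and CCAAT at 10.8 and 11.4. Within 1 kb of a coding TSS the CCAAT box had 10.2 matches per 10 kb under the peaks, and farther away 11.2. The GATA factor element AGATAAG stood at 0.854 and 0.924, with overlapping intervals. For FOX factors the element TGTTTAC stood at 0.907 and 0.915. For TEAD factors the element ACATTCC stood at 1.21 and 1.15. NRF1 elements numbered 13 under the peaks and 3 in the flanks, cyclic AMP response elements 47 and 30, and NF-kB elements 64 and 41. The full palindromic androgen response element had no match in 4155146 bp, which allows up to 0.00888 per 10 kb, and none in the flanks. Over all peaks it had 5 matches in 41951213 bp and 5 in their flanks. At so low a rate the lack of a match here cannot tell these peaks from the rest. All elements were counted on both strands, and matches of different elements may overlap.

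**Figure D5:**
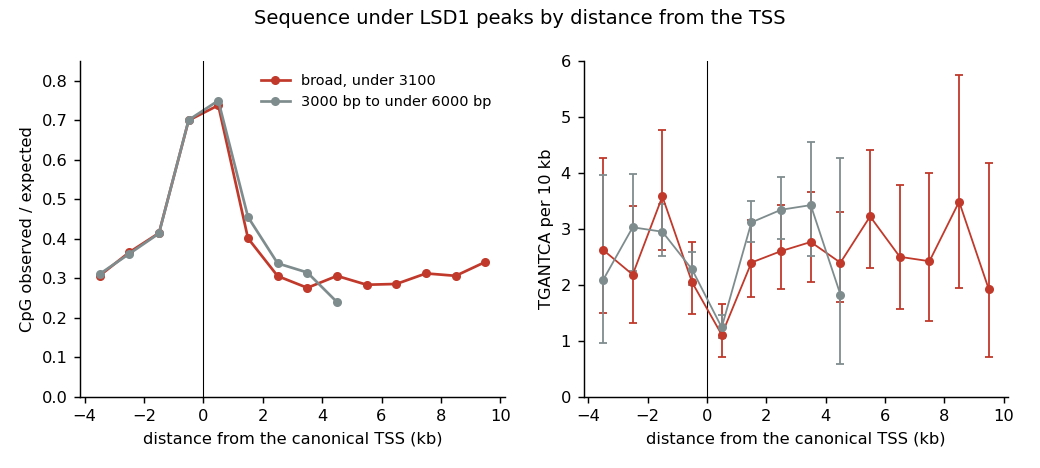
The left panel gives the CpG observed-to-expected ratio and the right panel TGANTCA per 10 kb, with exact 95% intervals, by distance in kb from the canonical TSS for broad peaks below the ceiling and peaks of 3000 bp to under 6000 bp. The CpG ratio peaks at 0.738 in the kb after the TSS of the broad peaks, where AP-1 elements are at 1.11 per 10 kb.

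Most broad regions had other peaks close by. Another peak of the list lay within 5 kb of 352 of 472 (74.6%, interval 70.4 to 78.4), against 82.8% of broad peaks at the ceiling, 58.8% of mid-width peaks and 42.4% of all peaks. The median gap to the nearest peak was 1362 bp, against 548, 2728 and 8236 bp. Joining all peaks that lay within 1 kb of each other gave 878 runs of at least 6000 bp with no score of 3100 or more, of which 445 held none of the 472 peaks. PXN was 1 of those, so the number of broad regions depends on where the caller broke them.

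Broad peaks were unevenly spread over the chromosomes. They were 31 of 688 peaks on chromosome 8 (4.51%, interval 3.08 to 6.34) and 28 of 667 on chromosome 20 (4.20%), against 2.35% over all peaks, 1 of 503 on chromosome X (0.199%) and 0 of 255 on chromosome 13, which allows up to 1.44%. Chromosome Y had 1 peak and no broad one. The 31 on chromosome 8 had a median width of 8558 bp and a median score of 915, against 7527 bp and 1101 elsewhere. The lead of chromosome 8 did not hold under every rule: it was highest at a width of at least 8000 bp (2.62%), but chromosome 14 led at 5000 bp (6.42%, with chromosome 8 at 5.81%) and chromosome 11 among scores of at least 1000 (2.26%, with chromosome 8 at 2.03%). Copy number is not in the data, and its part in these shares was not tested.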

How the data were processed

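One LSD1 ChIP-seq and 1 input library were sequenced on an Illumina HiSeq and mapped to hg19 with bowtie 2, per the labels' protocols. MACS 1.41 and Bowtie2 are named in the submitters' processing notes, as are hg19 and mm10, with no role given. Since the cells are of human origin and all peaks lie within GRCh37 chromosomes, coordinates were read as hg19, and what mm10 was used for is not given in the sources used here. The deposited list gives each peak's position and the authors' score. Caller settings, duplicate handling, read numbers and whether the input was used in calling are not given in the sources used here. The score was read as the caller's value from its lowest value of 50 and the repeated 3100, and served only to select, rank and describe peaks. The list is 1 file, and 0 further columns of sample values were left out. Of the 20110 peaks, 0 pairs overlapped, 0 ran past a chromosome end and 4 touched an assembly gap.

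Positions were set against GENCODE 44 mapped to GRCh37, and each midpoint was classed as promoter if a coding TSS lay within 1 kb, and otherwise as exon, intron or intergenic. Shares have exact binomial (Clopper-Pearson) and densities exact Poisson intervals at 95%, and medians have order-statistic intervals. Flanks start 2 kb outside each peak and have its total length. Sequences were read from GRCh37. The code was tested on simulated data, and planted values came back.

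Members, gene lists and comparisons were chosen with earlier results of these data known. Named are the 10 widest peaks, the 10 highest and 5 lowest scores, the 5 with the most canonical TSSs, the 8 widest without a coding TSS, the 5 with the most AP-1 elements, up to 4 genes per list under the widest peaks, the chromosomes of highest and lowest share, the peaks nearest the thresholds, KDM1A and PXN. Other genes are named after their values were seen, and some genes that fit these criteria are not reported here by name. Alternatives were other widths, scores, TSS sets, windows, flanks and joining of peaks. Tools were samtools 1.23.1 and Python 3.11.15 with pysam 0.24.0, pandas 2.3.3, numpy 2.4.6, scipy 1.17.1 and matplotlib 3.10.9.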

Additional observations from a re-analysis of the deposited data

How the results depend on the processing

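No paired analysis was possible because 1 library stands in either arm. Of 50 alternative values, 24 stayed within the interval of the reported value or, for counts, within a fixed factor of it. Another 26 moved and 0 changed sign, though only the GC difference could have changed sign. Comparisons did turn round: within 5 kb the promoter share was above that of all peaks (73.4%), and chromosome 8 ranked 3 by share at 5000 bp and at a score of at least 1000. The promoter share was 46.6% with start sites of all gene types, 80.9% for any base, 10.4% with canonical TSSs and 81.4% with a window of 5 kb. A canonical TSS lay inside 76.1% at a width of at least 8000 bp, 71.7% at a score of at least 1000, and any coding TSS inside 78.8%. The downstream share was 72.4% over every covered TSS, 81.5% from the most upstream TSS, 72.9% at 5000 bp and 82.0% at 8000 bp. The GC difference was 2.68 points for the central 1000 bp, 4.54 with flanks from 10 kb and 4.17 at a score of at least 1000. AP-1 density was 1.64 for TGACTCA and 2.86 beyond 1 kb from a TSS. A neighbour lay within 1 kb of 45.8% and within 20 kb of 90.0%. Genes of the lists under broad peaks numbered 23 at 8000 bp, against 37. The chromosome 8 share was 19.8% by bases, 2.03% at a score of at least 1000 and 2.62% at 8000 bp. Broad regions numbered 878 when joined within 1 kb, 254 at a score of at least 1000, 786 at 5000 bp and 201 at 8000 bp, alternatives chosen after seeing the data. The cause of these shifts was not tested beyond the changed definitions, and the unknown depth limits what the score and the peak edges can show.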

Other observations

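Small nucleolar RNA genes, whose products guide modification of ribosomal RNA and mostly lie in introns of host genes, were inside few but gene-rich broad peaks. Of 427 annotated snoRNA genes, 32 (7.49%) lay whole within 13 of the 472 broad peaks below the ceiling. RPL13A carried SNORD32A, SNORD33, SNORD34 and SNORD35A, RPL7A carried SNORD24, SNORD36A, SNORD36B and SNORD36C, and EIF4A2 and NOP56 carried several more. By comparison 29 of 3040 annotated miRNA genes (0.954%) lay in 27 of the peaks, among them MIRLET7A3 and MIRLET7B in 1 peak over MIRLET7BHG, 103 of 18678 lncRNA genes (0.552%) lay whole in 91 peaks, and 0 of 1900 snRNA genes did. Host genes of snoRNAs overlap the ribosomal and translation lists, so these counts are not separate from those. A short gene lies whole within a peak more easily than a long one, and the part of gene length was not tested. Shares under other LSD1 peaks are not given, so the snoRNA share cannot be called particular to these peaks. These genes were named after their values were seen.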
